A study of Mus musculus with 8 samples.

Results

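The genes described here encode S100 proteins (S100a4, S100a6, S100a10 and S100a11), annexins (Anxa1 and Anxa2), galectins (Lgals1 and Lgals3) and the filament protein vimentin (Vim), which are often read together as genes of effector T cells. They were taken as every probe set of the deposited array values whose platform annotation names 1 of these 9 symbols and no other gene. This gave 16 of the 45037 probe sets tested, for 8 of the 9 genes. S100a11 is annotated only to a probe set that it shares with a pseudogene, S100a11-ps, and a predicted gene, Gm12854, so that probe set is given as values and counted nowhere. The 8 measured genes are 8 of 18193 genes with a probe set of their own.

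Mouse CD4+ T cells had been sorted by the fluorescence of enhanced green fluorescent protein (EGFP) joined to Foxp3, the X-linked transcription factor of regulatory T cells. EGFP-positive cells came from hemizygous males carrying a tagged Foxp3 allele that was either the mutant called delta or wild type (WT), and EGFP-negative CD4+ cells were also sorted. The arrays were labelled delta EGFP-positive (n = 3), WT EGFP-positive (n = 3), delta EGFP-negative (n = 1) and WT EGFP-negative (n = 1), and what they share is that all hold RNA of sorted CD4+ T cells with an EGFP-tagged allele in the label. The sources used here give neither strain, age and source organ nor whether replicates came from separate animals. The p-values therefore measure only how far these arrays spread, which may be technical. Values are log2 intensity after RMA, the authors' probe set summary, and differences are differences of log2 intensity. Array medians lay between 53.3 and 54.7 on the linear scale, and log2 values correlated at 0.988 to 0.991 among delta EGFP-positive arrays, at 0.98 to 0.992 among WT EGFP-positive arrays and at 0.96 to 0.969 across the pair of groups. No detection call was used here, so a dim probe set has no lower bound of its own, and precision is limited by how few arrays there are.

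The targeted gene was read first. Foxp3 read 11.1, 11.51 and 11.21 in the arrays labelled delta EGFP-positive, 4.75, 4.86 and 4.64 in those labelled WT EGFP-positive, 6.14 in the delta EGFP-negative array and 4.52 in the WT EGFP-negative array. The low reading in the arrays labelled WT EGFP-positive goes against their label, and the sources used here do not place this probe set in either altered allele. Group names below are those of the array labels, and all directions rest on them. The general T cell genes Cd3d, Cd3e, Cd3g and Cd5, and Cd4 of the CD4+ lineage, were at percentiles 96.9 to 99.5 of the probe sets in each of the 8 arrays.

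S100 proteins are small calcium-binding proteins that work as dimers and bind partners such as myosin and annexins. Annexins attach to membrane phospholipids when calcium is bound, and galectins bind sugars that end in galactose on cell surface glycoproteins. Vimentin is the main intermediate filament protein of lymphocytes and other cells of mesodermal origin. In T cells the transcripts of these genes are known to be low in naive cells and high after activation and in memory cells, and several are also abundant in regulatory T cells.

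The promoters of the 4 genes on which the comparisons turn are shown first: Lgals3 and Anxa2, which differed most between the alleles, and S100a4 and S100a6, which differed most between EGFP-positive and EGFP-negative cells of the WT allele. Each is the 250 bases before the gene's start on the plus strand, from RefSeq on build GRCm38.p6, whose table held 7 of the 9 genes. The windows are chr14:47373610-47373859 for Lgals3, chr9:69453433-69453682 for Anxa2, chr3:90603520-90603769 for S100a4 and chr3:90612644-90612893 for S100a6. Capitals mark every match, on either strand, to TGANTCA (AP-1), TGTTTAC (forkhead factors), GGGCGG (Sp1 and KLF factors) or TTCNNNGAA (STAT factors).
Lgals3: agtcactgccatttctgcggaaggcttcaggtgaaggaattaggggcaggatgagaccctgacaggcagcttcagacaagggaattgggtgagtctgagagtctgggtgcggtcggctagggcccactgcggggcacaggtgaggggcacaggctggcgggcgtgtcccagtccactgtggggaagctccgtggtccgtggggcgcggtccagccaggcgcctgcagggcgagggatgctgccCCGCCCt
Anxa2: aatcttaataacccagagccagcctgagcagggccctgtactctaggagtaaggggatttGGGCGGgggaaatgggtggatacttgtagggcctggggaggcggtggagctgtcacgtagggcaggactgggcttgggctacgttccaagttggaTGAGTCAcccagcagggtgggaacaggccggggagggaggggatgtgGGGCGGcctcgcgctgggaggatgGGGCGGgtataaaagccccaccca
S100a4: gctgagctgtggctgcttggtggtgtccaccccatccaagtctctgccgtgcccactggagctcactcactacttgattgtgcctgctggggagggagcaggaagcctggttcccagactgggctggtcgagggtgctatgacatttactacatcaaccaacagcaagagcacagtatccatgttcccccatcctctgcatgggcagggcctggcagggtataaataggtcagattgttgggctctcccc
S100a6: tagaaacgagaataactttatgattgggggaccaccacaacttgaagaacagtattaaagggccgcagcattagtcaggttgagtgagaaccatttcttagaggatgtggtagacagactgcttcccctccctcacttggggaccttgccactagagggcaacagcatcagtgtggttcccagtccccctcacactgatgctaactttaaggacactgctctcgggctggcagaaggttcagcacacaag
The Anxa2 window held 1 match to TGANTCA and 3 to GGGCGG, the Lgals3 window held 1 match to GGGCGG on the reverse strand, and no matches overlapped. Among the same windows of 32851 promoters, 6.75% held TGANTCA, 3.17% TGTTTAC, 32.7% GGGCGG and 7.02% TTCNNNGAA. The S100a4 and S100a6 windows held none of these letters, which says nothing about the factors.

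Of the 3 S100 genes with a probe set of their own, S100a4 and S100a6 differed most between EGFP-positive and EGFP-negative cells of the WT allele. S100a10 also passed that test by its highest probe set, with a smaller rise. Neither S100a4 nor S100a6 passed the test between the alleles. S100a4 encodes a protein that binds non-muscle myosin and is tied to cell motility. It read 11.01, 11.13 and 10.83 in the delta EGFP-positive arrays, 11.54, 12.09 and 11.32 in the WT EGFP-positive arrays, 10.75 in the delta EGFP-negative array and 8.25 in the WT EGFP-negative array. All 3 delta EGFP-positive arrays were below all 3 WT EGFP-positive arrays, and the WT EGFP-negative array was far below the other 7. Between the EGFP-positive groups the difference of -0.66 (SE 0.2) did not pass in limma's moderated test (adjusted p = 0.076; 0.045 to 0.19 over the alternatives). In the WT allele S100a4 rose 10.5-fold in EGFP-positive cells (difference 3.39, SE 0.28, limma adjusted p = 0.0028), and in the delta allele it differed by 0.24 (SE 0.28, 0.86).

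S100a6, also called calcyclin, encodes a protein that binds the ubiquitin ligase adaptor Cacybp. Its values were 11.03, 11.21 and 10.69 in the delta EGFP-positive arrays, 10.71, 11.1 and 10.62 in the WT EGFP-positive arrays, 10.55 in the delta EGFP-negative array and 8.08 in the WT EGFP-negative array. The EGFP-positive groups overlapped, and again 1 array, that of WT EGFP-negative cells, stood low. S100a6 rose 6.65-fold in WT EGFP-positive against WT EGFP-negative cells (difference 2.73, SE 0.26, limma adjusted p = 0.0044). It differed by 0.17 between the EGFP-positive groups (SE 0.18, 0.67) and by 0.43 between EGFP-positive and EGFP-negative cells of the delta allele (SE 0.26, 0.66).

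S100a4 and S100a6 lie in a cluster of S100 genes on chromosome 3, with S100a5 between them in the RefSeq gene table. That neighbour, named after its values were seen, ran between 5.28 and 5.66 over the 8 arrays: S100a5 averaged 5.32 in delta EGFP-positive and 5.42 in WT EGFP-positive arrays, and stood at 5.44 in the delta EGFP-negative array and 5.66 in the WT EGFP-negative array. Its differences of -0.1 between the EGFP-positive groups and -0.24 between EGFP-positive and EGFP-negative cells of the WT allele did not pass (limma adjusted p = 0.68 and 0.75). All 8 of its values lay below the median of all probe sets, 5.75, so little can be read from how flat they were.

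S100a10, the partner of annexin A2, has lost calcium binding and forms a complex of a pair of each protein. Its highest probe set read 12.25, 12.51 and 12.27 in the delta EGFP-positive arrays, 12.58, 12.77 and 12.5 in the WT EGFP-positive arrays, 11.87 in the delta EGFP-negative array and 11.52 in the WT EGFP-negative array. The EGFP-positive groups overlapped by 1 array on either side, and both EGFP-negative arrays lay below all 6 of their values. S100a10 rose by 1.09 in WT EGFP-positive against WT EGFP-negative cells (SE 0.18, limma adjusted p = 0.038). That call was lost without any single EGFP-positive array except WT EGFP-positive replicate 2 (0.059 to 0.1; 0.0083 to 0.15 over the alternatives). Delta arrays enter tests within the WT allele, here and below, only through the estimate of spread shared by all groups. Leaving one of them out changes the p and not the difference.

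The 3 probe sets of S100a10 did not give 1 answer between the alleles. The highest differed by -0.27 (SE 0.13, limma adjusted p = 0.25) and the next by -0.28 (SE 0.14, 0.26). The dimmest, at 5.27, 6.38 and 6.44 in the delta EGFP-positive arrays against 7.27, 8.13 and 6.98 in the WT EGFP-positive arrays, fell by 1.43 (SE 0.38, limma adjusted p = 0.048), and lost the call without any single EGFP-positive array (up to 0.12; 0.028 to 0.12 over the alternatives). All 3 had the same sign.

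The probe set annotated to S100a11 together with S100a11-ps and Gm12854 read 12.23, 12.36 and 12.04 in the delta EGFP-positive arrays, 11.57, 11.72 and 11.44 in the WT EGFP-positive arrays, 11.86 in the delta EGFP-negative array and 10.95 in the WT EGFP-negative array. Signal of the 3 annotated genes cannot be told apart in it.

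**Figure D1:**
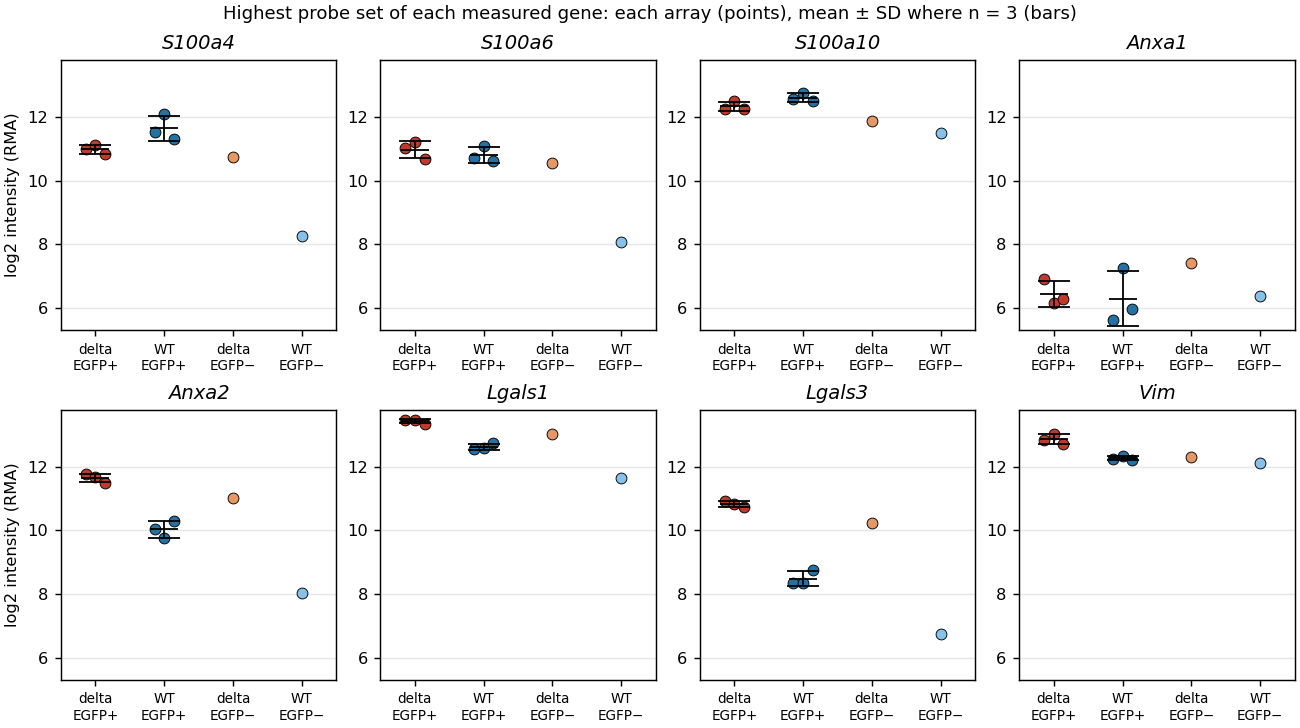
Log2 RMA intensity (y axis) of the highest probe set of each of the 8 measured genes, 1 panel a gene, in the delta EGFP-positive (n = 3), WT EGFP-positive (n = 3), delta EGFP-negative (n = 1) and WT EGFP-negative (n = 1) arrays; points are arrays and bars are the mean ± SD. The WT EGFP-negative array is the lowest of the 8 for each gene except Anxa1, and Lgals3 runs between 10.75 and 10.93 in the delta EGFP-positive arrays against 8.34 to 8.74 in the WT EGFP-positive arrays.

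The annexins parted. Anxa2 encodes a membrane and actin binding protein that also docks plasminogen, and it was the second largest rise among the 8 genes in delta EGFP-positive cells. It read 11.77, 11.69 and 11.49 in the delta EGFP-positive arrays, 10.06, 9.77 and 10.31 in the WT EGFP-positive arrays, 11.01 in the delta EGFP-negative array and 8.02 in the WT EGFP-negative array. The groups did not overlap, and the delta EGFP-negative array lay above every WT array. Anxa2 rose 3.04-fold in delta against WT EGFP-positive cells (difference 1.6, SE 0.16, limma adjusted p = 0.00079; 0.00027 to 0.007 over the alternatives). In the WT allele it rose 4.07-fold in EGFP-positive cells (difference 2.02, SE 0.23, 0.008), and in the delta allele it differed by 0.63 (SE 0.23, 0.43).

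Further Anxa2 probe sets did not show this. One averaged 5.42 ± 0.22 in delta and 5.18 ± 0.1 in WT EGFP-positive arrays (SD, n = 3 each), a difference of 0.24 (limma adjusted p = 0.36). The other differed by -0.04 (limma adjusted p = 0.91) and lay at the 2.9 percentile of all probe sets in its lowest array. Both read below the median of all probe sets, 5.75.

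Anxa1 encodes annexin A1, a glucocorticoid-induced protein that limits inflammation through formyl peptide receptors. It varied within groups rather than between them: its higher probe set read 6.91, 6.15 and 6.28 in the delta EGFP-positive arrays and 5.62, 7.26 and 5.98 in the WT EGFP-positive arrays, with 7.4 in the delta EGFP-negative array and 6.39 in the WT EGFP-negative array. The EGFP-positive groups overlapped fully. Differences were 0.16 between the EGFP-positive groups (SE 0.41, limma adjusted p = 0.87), -0.1 for EGFP in the WT allele (SE 0.58, 0.98) and -0.95 for EGFP in the delta allele (SE 0.58, 0.67). Leaving out WT EGFP-positive replicate 1 or delta EGFP-positive replicate 1 turned the first difference negative, and the dimmer probe set differed by 0.07 (0.86).

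Both galectins rose in delta EGFP-positive cells. Lgals3 encodes galectin-3, which crosslinks glycoproteins at the cell surface and is known to restrain T cell receptor signalling. It read 10.93, 10.84 and 10.75 in the delta EGFP-positive arrays, 8.34, 8.35 and 8.74 in the WT EGFP-positive arrays, 10.24 in the delta EGFP-negative array and 6.74 in the WT EGFP-negative array. Every delta array stood above every WT array. The gene rose 5.14-fold between the EGFP-positive groups (difference 2.36, SE 0.14, limma adjusted p = 0.00013; 5.1e-05 to 0.0022 over the alternatives). In the WT allele Lgals3 rose 3.34-fold in EGFP-positive cells (difference 1.74, SE 0.2, 0.0084), and in the delta allele it differed by 0.6 (SE 0.2, 0.39).

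Lgals1 encodes galectin-1, known both as a regulatory T cell product and for killing activated T cells. Its highest probe set read 13.49, 13.48 and 13.36 in the delta EGFP-positive arrays, 12.57, 12.58 and 12.74 in the WT EGFP-positive arrays, 13.03 in the delta EGFP-negative array and 11.64 in the WT EGFP-negative array. The order of groups was that of Lgals3, on a smaller scale. Lgals1 rose 1.76-fold in delta against WT EGFP-positive cells (difference 0.81, SE 0.11, limma adjusted p = 0.0029; 0.00021 to 0.018 over the alternatives). The other Lgals1 probe set rose 2.03-fold (1.02, SE 0.12, 0.0014).

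Between EGFP-positive and EGFP-negative cells of the WT allele the 2 Lgals1 probe sets rose by 0.99 (SE 0.15, limma adjusted p = 0.029) and 1.13 (SE 0.16, 0.022). The first lost its call without any single EGFP-positive array except WT EGFP-positive replicate 2 (0.053 to 0.094; 0.0031 to 0.22 over the alternatives). The second lost it without delta EGFP-positive replicate 1, delta EGFP-positive replicate 2 or WT EGFP-positive replicate 3 (up to 0.18 over the alternatives). In the delta allele they differed by 0.41 and 0.46 (0.45 and 0.43).

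Vim read 12.84, 13.04 and 12.72 in the delta EGFP-positive arrays, 12.26, 12.35 and 12.23 in the WT EGFP-positive arrays, 12.32 in the delta EGFP-negative array and 12.11 in the WT EGFP-negative array. The delta EGFP-positive arrays stood above the other 5, which lay close together. Vim rose 1.5-fold between the EGFP-positive groups (difference 0.59, SE 0.12, limma adjusted p = 0.017). It no longer passed when WT EGFP-positive replicate 1, WT EGFP-positive replicate 3, delta EGFP-positive replicate 1 or delta EGFP-positive replicate 2 was left out (0.057 to 0.064; 0.0032 to 0.064 over the alternatives). Its further probe sets differed by 0.48 (SE 0.13, 0.05, just above the threshold) and 0.37 (SE 0.15, 0.16). EGFP differences were 0.17 in the WT allele (SE 0.17, 0.86) and 0.55 in the delta allele (SE 0.17, 0.36).

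**Figure D2:**
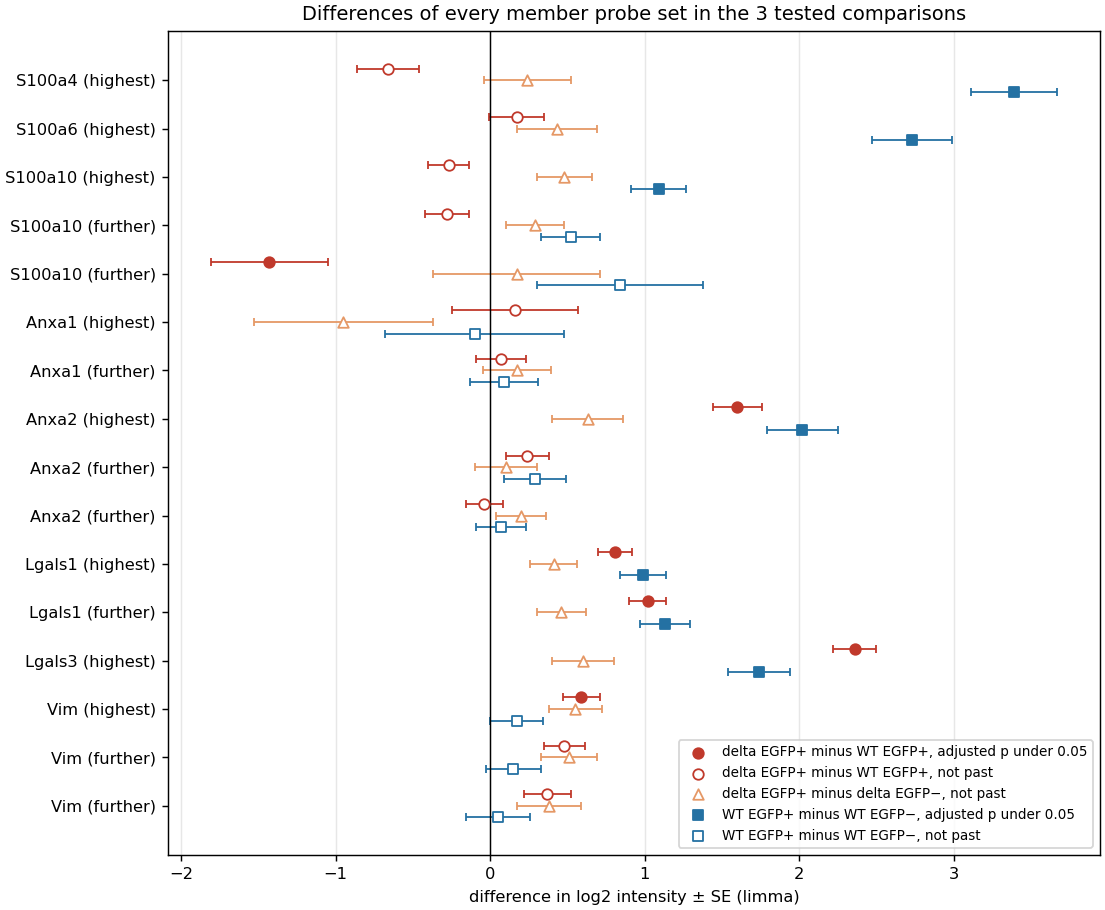
Difference in log2 intensity (x axis, ± SE from limma) of each of the 16 probe sets, from the highest to the dimmest of each gene, for delta minus WT EGFP-positive, delta EGFP-positive minus delta EGFP-negative, and WT EGFP-positive minus WT EGFP-negative; filled symbols have an adjusted p under 0.05. The WT EGFP differences of S100a4 (3.39) and S100a6 (2.73) lie farthest right, and the delta EGFP differences run between -0.95 and 0.63 with none filled.

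The comparison of delta with WT EGFP-positive cells asks what goes with the mutant allele in cells sorted as EGFP-positive. With p-values adjusted across the whole array (Benjamini-Hochberg, threshold 0.05), 6 of the 16 probe sets passed, 5 of them higher and 1 lower in delta EGFP-positive cells. The rises were both probe sets of Lgals1 and the highest of Lgals3, Anxa2 and Vim, and the fall was the dimmest S100a10 probe set. Of all 45037 probe sets 12.7% passed in this comparison, 7.35% as higher and 5.39% as lower. With probe sets below the median intensity left out, 25.6% of the remaining 22608 passed, and most of the 16 are above it. The 16 probe sets come from 8 genes, of which 4 passed by their highest probe set, against 16.5% of all genes. The median difference of the 8 genes was 0.38, against 0.02 over all genes, and their differences ran between -0.66 for S100a4 and 2.36 for Lgals3.

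The arrays of the EGFP-positive groups did not overlap for 10 of the 16 probe sets, 7 higher and 3 lower in delta, against 29.0% of all probe sets on either side and 15.6% as higher. With 3 arrays on either side, the smallest p of an exact permutation test is 0.1. The title numbers of the arrays fall into 3 runs, each with 1 array of either EGFP-positive group; the labels do not say what the numbers stand for. Within the runs delta minus WT was 2.59, 2.49 and 2.01 for Lgals3, 1.7, 1.92 and 1.18 for Anxa2, 0.92, 0.91 and 0.62 for Lgals1, 0.58, 0.69 and 0.5 for Vim, and -0.53, -0.96 and -0.49 for S100a4. The sign was the same in all 3 runs for each of these genes, while Anxa1 gave 1.3, -1.11 and 0.3.

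Within the WT allele, EGFP-positive and EGFP-negative cells were compared over 3 arrays against 1, and the lone array was taken to spread as the replicated groups do. In it 7 of 16 probe sets passed, all 7 higher in EGFP-positive cells: S100a4, S100a6, the highest probe sets of S100a10, Anxa2 and Lgals3, and both of Lgals1. Over all probe sets 1.1% passed, 0.706% as higher and 0.395% as lower, and 1.99% of the 22608 left without those below the median intensity. The count was 4 without delta EGFP-positive replicate 1, delta EGFP-positive replicate 2 or WT EGFP-positive replicate 3. S100a4, S100a6, Anxa2 and Lgals3 passed whichever single EGFP-positive array was left out. With the title-number runs as a block in the fit, Anxa2 and Lgals3 no longer passed. All 3 EGFP-positive arrays lay on 1 side of the EGFP-negative array for 14 of 16 probe sets, each time above it, against 53.0% of all probe sets on either side. The median difference of the 8 genes was 1.42, against -0.02 over all genes.

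In the delta allele none of the 16 probe sets passed limma's test between EGFP-positive and EGFP-negative cells, where 0.0755% of all probe sets did (0.0178% higher, 0.0577% lower), and 7 had an unadjusted p under 0.05, against 9.73% of all. All 7 were higher in EGFP-positive cells: S100a10, Anxa2, both Lgals1 probe sets, Lgals3 and 2 of Vim. All 3 EGFP-positive arrays were above the EGFP-negative one for 12 probe sets and below it for 1, against 57.4% of all probe sets on either side. The median difference of the 8 genes was 0.46, against 0.02 over all genes. Whether the EGFP difference itself differed between the alleles was tested as an interaction, in which 0 of 16 probe sets passed (0.04% of all did, 0.0155% as positive and 0.0244% as negative) and 7 had an unadjusted p under 0.05, against 6.14% of all. S100a4 came closest, with a delta EGFP difference smaller than the WT one by 3.16 on the log2 scale (interaction -3.16, SE 0.4, limma adjusted p = 0.063). Leaving out WT EGFP-positive replicate 2 brought it past the threshold (-2.94, 0.019; alternatives 0.013 to 0.23). S100a6 gave -2.3 (SE 0.36, 0.14), and passed without that array and delta EGFP-positive replicate 3 together (-2.02, 0.031; 0.031 to 0.39 over the alternatives).

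The EGFP-negative groups had 1 array each, so they were compared by their values alone, with no replicate check. The same WT EGFP-negative array also enters the EGFP test of the WT allele and the interaction, so these results are not separate observations. The array labelled delta EGFP-negative was at least 2-fold above the WT EGFP-negative array for 7 of 16 probe sets and below it by as much for 0, where 4.53% of all probe sets differed by 2-fold or more and 2.82% were higher. The differences were 3.51 for Lgals3, 2.99 for Anxa2, 2.5 for S100a4, 2.47 for S100a6, 1.69 and 1.39 for the Lgals1 probe sets and 1.01 for Anxa1. S100a10 (0.34) and Vim (0.21) differed by less. The other Anxa1 probe set differed by -0.01, and the higher one ran between 5.62 and 7.26 within the WT EGFP-positive arrays.

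The order of the group levels is given for the highest probe set of each gene. Lgals3, Lgals1 and Anxa2 were highest in delta EGFP-positive cells, then in delta EGFP-negative, WT EGFP-positive and WT EGFP-negative cells. Vim had the same order, but its delta EGFP-negative value of 12.32 lay within its WT EGFP-positive arrays, 12.23 to 12.35. Anxa1 was highest in the delta EGFP-negative array (7.4), then in delta EGFP-positive (mean 6.45), WT EGFP-negative (6.39) and WT EGFP-positive (mean 6.29) arrays. S100a4 and S100a10 were highest in WT EGFP-positive cells, then in delta EGFP-positive, delta EGFP-negative and WT EGFP-negative cells. S100a6 was highest in delta EGFP-positive cells, but its EGFP-positive groups did not differ beyond their spread. The EGFP-positive groups did not pass the test in S100a4 or S100a10 either, and delta EGFP-positive and delta EGFP-negative cells passed it in none of the 8 genes, so the order of these neighbours is not settled by these arrays. Delta EGFP-negative against WT EGFP-positive cells was not tested. In the further S100a10 probe sets the delta EGFP-negative array was below the WT EGFP-negative array, at 11.23 against 11.28 for one and at 5.85 against 6.62 for the other. In the EGFP-positive arrays the highest probe sets of S100a4, S100a6, S100a10 and Vim were each highest within their allele in replicate 2 of delta and replicate 2 of WT. The probe set that S100a11 shares was so too. The dimmest S100a10 probe set was not, at 6.38 in delta replicate 2 against 6.44 in delta replicate 3.

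**Figure D3:**
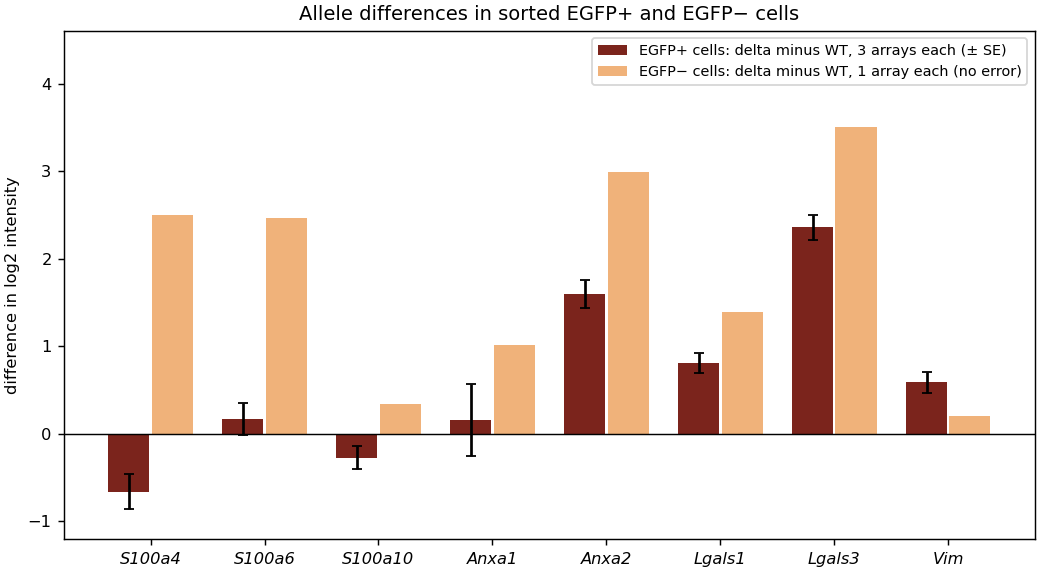
Delta minus WT difference in log2 intensity (y axis) of the highest probe set of each gene in EGFP-positive cells (dark bars, 3 arrays each, ± SE from limma) and in EGFP-negative cells (light bars, 1 array each, no error). S100a4 differs by -0.66 in EGFP-positive and by 2.5 in EGFP-negative cells, while Lgals3 differs by 2.36 and 3.51.

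Other genes of the same families and of related lists were counted 1 probe set a gene, and over all 18193 genes 16.5% passed between the EGFP-positive groups and 1.5% between EGFP-positive and EGFP-negative cells of the WT allele. Of 10 measured S100 genes outside the 4 listed, 1 rose and 0 fell in delta against WT EGFP-positive cells: S100a13, which takes part in the release of proteins that lack a signal peptide, by 0.73 (limma adjusted p = 0.0074). S100a8 and S100a9, the calprotectin subunits of neutrophils, did not pass (1.72 and 1.45, limma adjusted p = 0.16 and 0.25). S100a8 read 7.78, 5.07 and 7.2 in the delta EGFP-positive arrays against 4.95, 5.72 and 4.24 in the WT EGFP-positive arrays. Without delta EGFP-positive replicate 2 both passed (limma adjusted p = 0.017 for S100a8 and 0.029 for S100a9), and the count of rises was 3. Of 9 further annexins 0 passed limma's test between the EGFP-positive groups, and 1 had an unadjusted p under 0.05. Anxa4, a further membrane-binding annexin named after its value was seen, rose by 2.18 in WT EGFP-positive against WT EGFP-negative cells (limma adjusted p = 0.011).

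Of 6 further galectins, Lgals8 fell by 0.67 in delta against WT EGFP-positive cells (limma adjusted p = 0.0081) and none rose. Lgals9, named after its values were seen and known as a ligand of the inhibitory receptor Tim-3, differed by 0.00 (0.99). With WT EGFP-positive replicate 2 left out Lgals4 passed as lower (0.016; alternatives 0.016 to 0.21), and Lgals7 as higher without delta EGFP-positive replicate 3 (0.0012; 0.0012 to 0.35).

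Of 11 intermediate filament and lamin genes besides Vim, 3 rose and 1 fell between the EGFP-positive groups, where 16.5% of all genes passed. The nuclear lamin genes Lmnb1 (1.29, limma adjusted p = 0.024) and Lmnb2 (0.62, 0.019) and the keratin gene Krt18 (1.13, 0.0027) rose, and Plec, the linker of filaments to membranes, fell by 0.59 (0.009). The count of rises was 1 without WT EGFP-positive replicate 1 or delta EGFP-positive replicate 2.

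Of 18 measured partners and receptors of the listed proteins, 2 rose and 1 fell in delta against WT EGFP-positive cells, a share near the 16.5% of all genes. Lgals3bp, a secreted glycoprotein bound by galectin-3, stood at 10.38 ± 0.09 in delta and 8.98 ± 0.3 in WT EGFP-positive arrays (SD, n = 3 each; difference 1.4, SE 0.16, limma adjusted p = 0.0016). Itgb1, the integrin beta1 chain that galectin-1 binds, rose by 0.83 (0.0046), but its 5 further probe sets differed by 0.0 to 0.87. Tmem63a fell by 0.83 (0.0041). Ahnak, the scaffold bound by the annexin A2 and S100a10 complex, differed by -0.26 (0.5).

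Within the WT allele Ahnak and Itgb1, named here after their values were seen, rose by 1.82 (limma adjusted p = 0.027) and 1.4 (0.011) in EGFP-positive cells. Ahnak did not pass with WT EGFP-positive replicate 1, WT EGFP-positive replicate 3 or delta EGFP-positive replicate 3 left out, and the count was then 1 (alternatives 0.012 to 0.2). With the title-number runs as a block in the fit, neither Ahnak nor Itgb1 passed. Myh9, the myosin heavy chain bound by S100a4, differed by -0.14 between the EGFP-positive groups and by -0.26 for EGFP in the WT allele (0.6 and 0.77).

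Of 20 genes known to be high in effector and memory T cells, 7 rose and 3 fell in delta against WT EGFP-positive cells, with a median of -0.02, where 16.5% of all genes passed. The chemokine Ccl5 (4.06, limma adjusted p = 3.4e-05), Plac8 (3.46, 0.00015) and the transcriptional regulator Id2 (1.69, 0.0037) rose most. The receptor Klrg1 (-1.23, 0.0081), the actin capping gene Capg (-0.79, 0.014) and the integrin Itgb7 (-0.7, 0.01) fell; a further Capg probe set differed by 0.7, and Capg lost its call without delta EGFP-positive replicate 1 (0.0078 to 0.06 over the alternatives). The count of rises was 4 when WT replicate 1, WT replicate 3, delta replicate 1 or delta replicate 2 of the EGFP-positive arrays was left out. In the WT allele, where 1.5% of all genes passed, 6 rose and 0 fell in EGFP-positive cells, and 3 rose without WT EGFP-positive replicate 3. Klrg1 by 3.85 (limma adjusted p = 0.0022) and Capg by 2.74 (0.0026) were among the 6, as were Ahnak and Itgb1, counted above as partners. With the title-number runs as a block in the fit, only Klrg1 and Capg of the 6 passed.

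Capg, like S100a4, was highest in the WT EGFP-positive group and lowest in the WT EGFP-negative array. Capg stood at 10.43 in delta EGFP-positive, 11.23 in WT EGFP-positive, 9.22 in delta EGFP-negative and 8.48 in WT EGFP-negative arrays, as means of 3 arrays for the EGFP-positive groups. Of 9 naive T cell genes 0 rose and 7 fell in delta against WT EGFP-positive cells, with a median of -1.53, where 16.5% of all genes passed. The falls were led by Foxo1 (-1.81), Bach2 (-1.74) and Actn1 (-1.71; limma adjusted p = 0.00025, 0.00084 and 0.00074). Further probe sets differed by -1.72 to 0.02 for Foxo1, -2.0 to -0.44 for Bach2 and -1.44 to -1.11 for Actn1.

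By the likeness of their levels over the 8 arrays to the mean of the 8 genes, the closest of 10954 genes were Frmd4b (Pearson r = 0.993), Plp2 (0.986), Endod1 and Pafah1b3 (0.984 each) and Nudt22 (0.982). Arrays of a group share their sort and the WT EGFP-negative array lies far from the rest, so these are descriptions with no p. Without that array and delta EGFP-positive replicate 1, the 2 farthest from the median, r lay between 0.905 and 0.964 over 6 arrays. Frmd4b read 9.09, 9.08 and 9.02 in the delta EGFP-positive arrays, 7.86, 8.48 and 7.77 in the WT EGFP-positive arrays, 8.68 in the delta EGFP-negative array and 5.64 in the WT EGFP-negative array. Each listed gene correlated with the mean of the other 7 at 0.947 for Lgals1, 0.916 for Anxa2, 0.907 for S100a6, 0.824 for Lgals3, 0.727 for Vim, 0.652 for S100a4, 0.538 for S100a10 and 0.108 for Anxa1, over the same 8 arrays.

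Other gene lists moved with the groups. All 9 measured cell cycle genes rose in delta against WT EGFP-positive cells, with a median of 3.09, where 16.5% of all genes passed. The mean level of the 9 was 10.26 to 10.62 in the delta EGFP-positive, 6.7 to 8.05 in the WT EGFP-positive, 9.57 in the delta EGFP-negative and 6.51 in the WT EGFP-negative arrays. The delta arrays of either sort were thus above all WT arrays in that list, as they were in Lgals3 and Anxa2. Of 10 handling and stress genes 0 rose and 4 fell (1 without WT EGFP-positive replicate 1, 2 without delta EGFP-positive replicate 2), and their mean was 7.24 to 8.69 in the delta EGFP-positive, 8.97 to 10.14 in the WT EGFP-positive, 8.15 in the delta EGFP-negative and 8.99 in the WT EGFP-negative arrays. Their part in the results above was not tested. In sorted bulk cells, fewer cells of a type and less RNA per cell cannot be told apart.

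**Figure D4:**
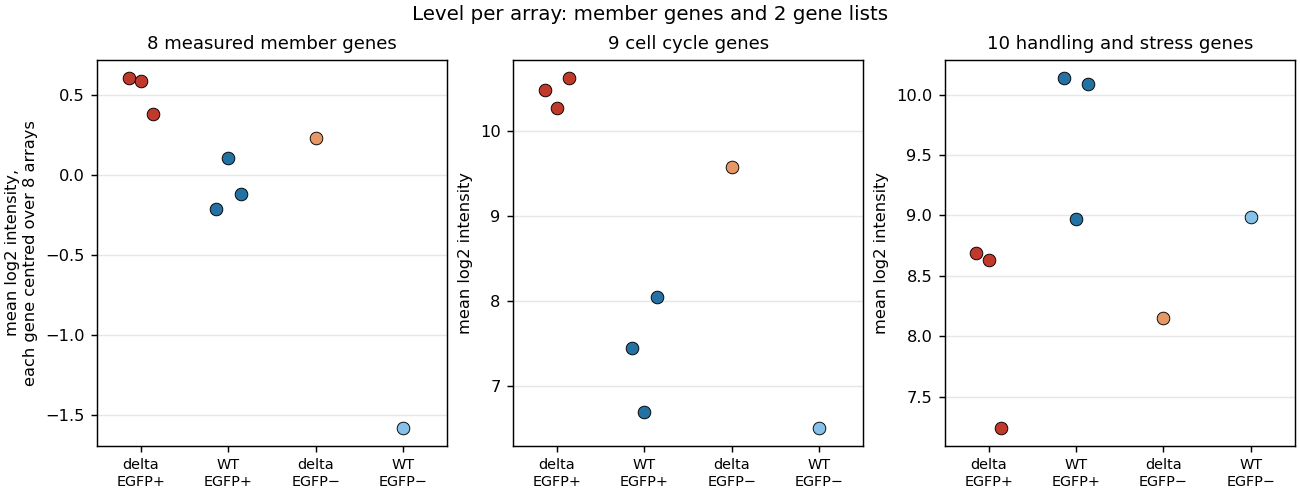
Mean log2 intensity per array (y axes) of the 8 measured genes, each centred on its mean over the 8 arrays (left), of 9 cell cycle genes (middle) and of 10 handling and stress genes (right), by group; points are arrays. The centred mean of the 8 genes is 0.38 to 0.61 in the delta EGFP-positive, -0.21 to 0.11 in the WT EGFP-positive, 0.23 in the delta EGFP-negative and -1.58 in the WT EGFP-negative arrays.

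Macrophages and stromal cells also carry much S100a4, Lgals1, Lgals3, Anxa2 and Vim, so their markers are given beside these genes. Of 9 myeloid markers, S100a8 and S100a9 among them, 0 passed limma's test between the EGFP-positive groups, and 3 had an unadjusted p under 0.05. Their summed linear intensity was 561 to 1010 in the delta EGFP-positive, 503 to 1455 in the WT EGFP-positive, 644 in the delta EGFP-negative and 390 in the WT EGFP-negative arrays. The macrophage receptor Csf1r was highest in WT EGFP-positive replicate 3, at 9.85, against 5.88 to 7.13 in the delta EGFP-positive arrays. Its delta minus WT difference in EGFP-positive cells was -1.81, but -0.38 and -0.35 in its 2 further probe sets. The median difference of the 9 markers was 0.27, on the other side, and Lyz2 stayed between 5.47 and 6.58 in all 8 arrays. Of 6 stromal markers 0 passed and 1 had an unadjusted p under 0.05, with summed intensities of 369 to 402 in the delta EGFP-positive, 319 to 362 in the WT EGFP-positive, 323 in the delta EGFP-negative and 314 in the WT EGFP-negative arrays. The share of all genes with an unadjusted p under 0.05 between the EGFP-positive groups was not counted. It is at least the 16.5% that passed after adjustment.

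Cd8a, a marker of CD8 T cells, read 8.5, 8.84 and 5.95 in the delta EGFP-positive arrays, 6.36, 5.22 and 6.29 in the WT EGFP-positive arrays, 8.52 in the delta EGFP-negative array and 6.28 in the WT EGFP-negative array. Its difference between the EGFP-positive groups was 1.81, and 0.17 to 1.6 in its 4 further probe sets. Cd8b1, the other CD8 marker measured, differed by 0.05 there (limma adjusted p = 0.94). It was highest in the WT EGFP-negative array, at 7.67. Of 4 B cell, 5 dendritic cell, 3 NK cell, 2 CD8 T cell and 4 erythroid and platelet markers measured 0 passed limma's test between the EGFP-positive groups. Unadjusted p-values under 0.05 were found for 1 B cell, 2 dendritic cell, 1 NK cell and 1 CD8 T cell marker. No marker can be read as absent on this scale, and the part of other cell types in the results was not tested.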

How the data were processed

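The 8 sorted cell samples were each measured on 1 single-colour Affymetrix array, with biotin labelling per the labels' protocols. The deposited values are linear intensity per probe set after RMA normalization by the authors, per the labels; no software version is named there. Of 45101 probe sets, 64 controls were left out. Platform annotation gave 1 symbol to 34945 probe sets, several to 932 and none to 9160, and 34741 matched a current gene record.

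Group means of log2 deposited intensity (4 groups, all 8 arrays) were estimated by limma 3.58.1 under R 4.3.3 (4 residual and 3.72 prior degrees of freedom), with Benjamini-Hochberg adjustment over 45037 probe sets and a threshold of 0.05. The unreplicated EGFP-negative arrays were compared by a fold of at least 2. The fit was checked on simulated data. A gene's highest probe set by mean over all arrays stands for it. The genes and lists were chosen with earlier results of these data known. All listed genes are named, and of each further list up to 3 genes called in each direction, by the size of the delta minus WT difference between EGFP-positive groups. The other genes named (S100a5, S100a8, S100a9, Anxa4, Lgals4, Lgals7, Lgals9, Ahnak, Myh9 and markers) were picked after their values were seen. Alternatives were an intensity trend, a filter on dim probe sets, renewed quantile normalization, median centring, a pseudocount of 16, only the EGFP-positive arrays, other probe sets, left-out arrays and a block by title number. The fit on only the EGFP-positive arrays is no separate check. Single arrays add nothing to the estimate of spread, and it returned the same 5734 calls.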

Additional observations from a re-analysis of the deposited data

How the results depend on the processing

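Between the EGFP-positive groups the calls of Lgals3, Anxa2 and both Lgals1 probe sets held in all array-level alternatives, and the count of called probe sets among the 16 lay between 4 and 8. Between EGFP-positive and EGFP-negative cells of the WT allele the count was 7, and lay between 4 and 7 when 1 EGFP-positive array was left out. It was 2 (S100a4 and S100a6) under the replicate block by title number, where Anxa2 (limma adjusted p = 0.086), Lgals3 (0.096), S100a10 (0.15) and Lgals1 (0.22) no longer passed. Both EGFP-negative arrays fall in the first run of title numbers, so the block could not compare EGFP differences across runs, and it left 2 residual degrees of freedom. Within that run the WT EGFP difference of the highest probe set was 1.61 for Lgals3, 2.04 for Anxa2, 1.05 for S100a10 and 0.93 for Lgals1. For the interaction the count of 0 was 1 with an intensity trend, 0 to 1 when 1 array was left out, and 2 without WT EGFP-positive replicate 2 and delta EGFP-positive replicate 3 together. Arrays of the same run deviated from their group means with correlations of 0.121, 0.0457 and -0.102, and those of different runs with -0.153 to 0.093. Each deviation is from a mean of 3 arrays and over all probe sets, dim ones included. These correlations therefore cannot decide whether the runs pair the arrays. Under the block S100a4 passed between the EGFP-positive groups (limma adjusted p = 0.045), the count there was 7, and the counts for the delta allele and the interaction were 0. Anxa1 reversed most: its allele difference lay between -0.17 and 0.65, and its WT EGFP difference between -0.59 and 0.23, when 1 array was left out, and its other probe set gave 0.09 for EGFP in the WT allele, 0.17 for EGFP in the delta allele and 0.08 for the interaction. The dimmest Anxa2 probe set gave -0.04 between the alleles and 0.13 for the interaction. Over all probe sets the calls between the EGFP-positive groups numbered 5734, but 3355 without WT EGFP-positive replicate 1, 3356 without delta EGFP-positive replicate 1 and 3716 without delta EGFP-positive replicate 2. For EGFP in the WT allele they numbered 496, with 83 under the block and 259 to 1845 with arrays left out; for EGFP in the delta allele 34, with 1 to 325 over the alternatives; and for the interaction 18, with 0 to 171. The cause of these shifts was not tested. The EGFP-negative arrays are single, so they could not be left out, and the filter on dim probe sets kept 13 of the 16.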
